A study of Mus musculus with 3 samples.

Results

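The insulin-like growth factor (IGF) system was examined in mouse neural stem cells (NSCs) through 10 named genes: the ligands Igf1 and Igf2, the receptors Igf1r and Igf2r, the binding proteins Igfbp2, Igfbp3, Igfbp4 and Igfbp5, and the docking proteins Irs1 and Irs2. Every array probe whose name in the scanner files was one of these genes was taken, which gave 17 of the 41174 probes and 9 of the 10 genes. No probe carried the name Irs2. Total RNA from NSCs with the genotype Dnmt3a-/- (labelled KO) was hybridised together with RNA from wildtype NSCs (labelled WT) on 3 two-colour arrays, each 1 of 3 biological replicates per the labels. Both RNAs came from cells derived in culture from mouse embryonic stem cells and kept in N2B27 medium with EGF and bFGF, first as attached cells, then as neurospheres, then as attached bipolar cells. The labels give no clone, passage or sex for the cells. The RNA labelled KO carried Cy3 and the RNA labelled WT carried Cy5 on all 3 arrays, so a bias of a probe toward one dye and a difference between genotypes cannot be told apart. Dnmt3a itself, the gene the label names as disrupted, was higher in the RNA labelled KO at all 3 of its probes, by 0.61 to 0.99 on the log2 scale. The sign and the call held under each scaling run, at 0.35 to 0.54 with median centring and 0.20 to 0.87 with the background model fitted on all spots. The labels do not say which exons were deleted, whether the probes lie in that part was not tested, and every direction below is that of the labels as given.

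IGF1 and IGF2 are secreted peptides that bind the IGF1 receptor, a tyrosine kinase at the cell surface that signals for growth, division and survival. The receptor acts through the docking proteins IRS1 and IRS2 on PI3 kinase and the kinase Akt, which in turn keeps the FoxO transcription factors out of the nucleus. The IGF2 receptor takes up IGF2 and delivers it to lysosomes, and the binding proteins hold the ligands in the fluid around the cells or release them. In the developing brain these ligands are known for promoting the proliferation and survival of neural precursors. Igf2 and Igf2r are also textbook imprinted genes, of which Igf2 is expressed from the paternal and Igf2r from the maternal copy in most mouse tissues, and Dnmt3a encodes an enzyme that adds methyl groups to DNA, at imprinted genes among others.

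The genes with the clearest differences were read by 7 probes, shown here by the first 30 of their 60 bases so that each reading can be traced to a stretch of transcript.
Igf1 A_51_P147942: cgcaggatcctttgctgcttgagcaacctg
Igf1 A_52_P536434: tggatgagtgttgcttccggagctgtgatc
Igf1 A_52_P306327: taaaatagttgagtaaaatttgccactgat
Igf2 A_51_P516826: aacatgcattttctggcaaaatcaaagctt
Igf2 A_51_P516833: gacagaaactcaaagagtaaattgttataa
Igfbp5 A_52_P281702: cacatcacatattactgtagctctctatag
Igfbp5 A_51_P204153: aatagaattttccttggtgtctcccatcta

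No stretch of 20 bases in any of the 17 probes was shared with another probe of the array. The scanner files place the probes on mouse build mm7, and whether each lies in an exon, intron or UTR was not analysed here. The Igf1 probes lie on chromosome 10 at chr10:87488982-87489041 (A_51_P147942), chr10:87471884-87471943 (A_52_P536434) and chr10:87420848-87420907 (A_52_P306327). Those of Igf2 lie 354 bases apart on chromosome 7, at chr7:139078075-139078135 (A_51_P516826) and chr7:139078490-139078549 (A_51_P516833). Those of Igfbp5 lie 2477 bases apart on chromosome 1, at chr1:73100116-73100175 (A_52_P281702) and chr1:73102653-73102712 (A_51_P204153), with Igfbp2 beside them at chr1:73093964-73094023.

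Values below are log2 ratios of the RNA labelled KO over the RNA labelled WT, given as mean ± SD over 3 arrays, with the adjusted p of limma's moderated test against 0 after Benjamini-Hochberg adjustment over all 26626 probes tested. Levels are normalised channel signals on a log2 scale and are compared only within a probe. All 17 probes passed the filter (well above background on all 3 arrays in at least one channel), and 16 did so in both channels. All 17 also passed the threshold of adjusted p under 0.05, as did 44.3% of all tested probes (20.7% higher and 23.6% lower), so that a call at this threshold was common on these arrays. One of the 17, at Igf2, was saturated in the WT channel and gives no direction, and another, at Igf1, passed the filter through the WT channel alone. Of the 15 that were readable in both channels on all arrays, 5 were higher and 10 lower in the RNA labelled KO, where 44.7% of the 24963 probes readable in the same way were called, 21.2% higher and 23.5% lower. The median ratio of the 15 was -0.33, against -0.0084 for those probes. In the reported fit a called change of at least 2-fold was reached by 2 of the 15, both at Igfbp5, and by 0.925% of the readable probes. With no offset, Igf1 A_51_P147942 was at -1.291 and A_52_P536434 at -1.255, past 2-fold. The share of all probes past 2-fold was not counted there. The scale on which these directions rest matters. With median centring in place of loess normalisation, each array was centred on the median of all its spots, controls left out. The median of the 26626 tested probes then lay at -0.22. Tested probes called split into 1160 higher and 13071 lower (5518 and 6285 with loess), and the member probes into 0 higher and 12 lower. Fitted on all spots, marked ones included, the background model had means of -489.5 to -167.4, against -4.659 to 1.036 for the fit used. With that all-spot fit, 9 of the 17 were called, 2 higher and 7 lower. The 8 calls lost there were those of both Igf1r probes, both Irs1 probes, Igf1 A_52_P536434 and A_52_P306327, Igfbp3 A_51_P228472 and Igfbp4 A_52_P257502.

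**Figure D1:**
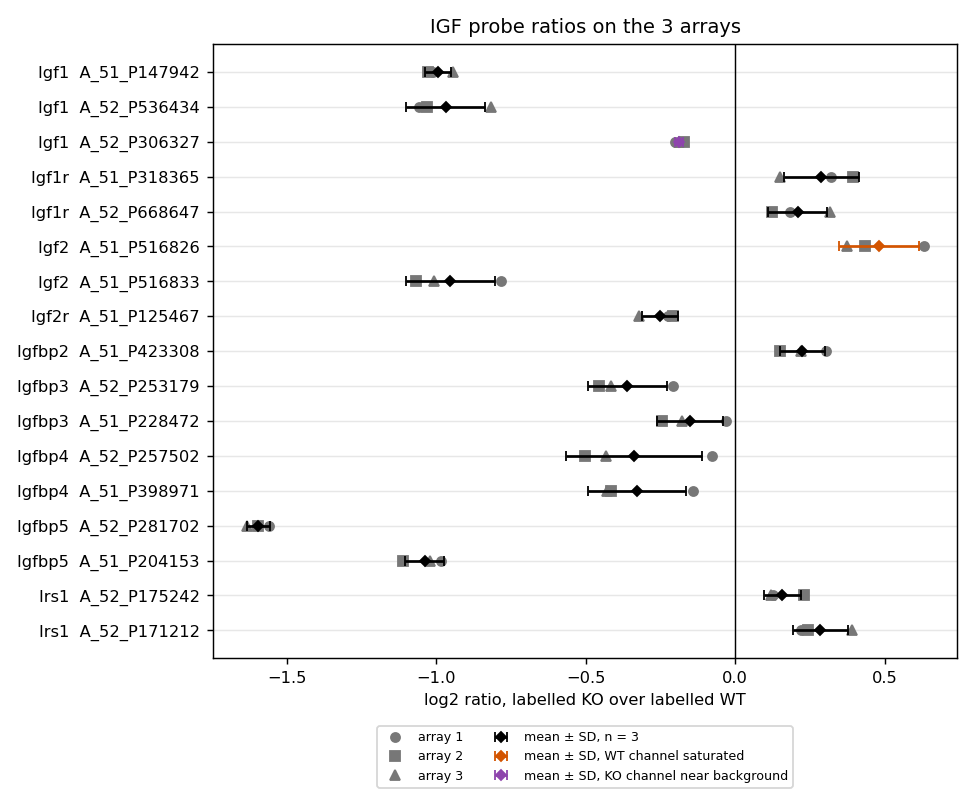
Log2 ratio of the RNA labelled KO over the RNA labelled WT (horizontal axis) for the 17 IGF probes, with 1 grey symbol per array and the mean ± SD of 3 arrays as a diamond with bars. Igfbp5, Igf1 and the unsaturated Igf2 probe lie farthest to the left, at means of -0.95 to -1.60 apart from the dim Igf1 probe (purple), and the orange Igf2 value is only an upper limit; after median centring the higher values of Igf1r A_51_P318365, Igfbp2, Irs1 A_52_P175242 and the orange Igf2 probe turned negative.

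Igf1, the ligand that in the body comes largely from liver and that many tissues also make locally, was lower in the RNA labelled KO. At probe A_51_P147942, spotted 10 times on each array, the log2 levels on arrays 1, 2 and 3 were 7.45, 7.36 and 7.40 for the RNA labelled KO and 8.46, 8.38 and 8.35 for the RNA labelled WT. The channels did not overlap, and the 3 arrays differed little: the ratios were -1.01, -1.03 and -0.94, with a mean of -0.99 ± 0.044 (n = 3), 1.99-fold lower, at a limma adjusted p of 3.6e-07. Between the spots of this probe within an array the SD of the ratio was 0.0821, 0.0481 and 0.0950, over 10, 10 and 9 spots. As scanned, the signals were modest, with 125 to 146 in the KO channel over a local background near 40.

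The probe A_52_P536434, 17038 bases away in the same gene, gave nearly the same value. Its levels were 7.47, 7.35 and 7.41 in the RNA labelled KO and 8.53, 8.38 and 8.23 in the RNA labelled WT, again without overlap. Its ratios of -1.06, -1.03 and -0.82 had a mean of -0.97 ± 0.13, 1.96-fold lower, at a limma adjusted p of 2.8e-06. Array 3 was nearest to 0 at both of these probes. With no offset A_51_P147942 was at -1.291 and A_52_P536434 at -1.255, and in the authors' deposited values at -1.337 and -1.277. With the background model fitted on all spots, both were at -0.33, at limma adjusted p of 0.042 for A_51_P147942 and 0.061 for A_52_P536434. The third probe, A_52_P306327, was drawn from a separate cDNA clone (AK050118) and lay 50976 bases from the nearest other probe. It was not well above background in the KO channel on any array. Its ratio of -0.19 ± 0.014 (limma adjusted p 0.0023) therefore bounds the fold for the loess scale and background fit used: at least 1.14-fold lower, a bound that equals the measured ratio and is open to dye bias. The bound does not carry over to other processing, since the ratio was -0.064 (adjusted p 0.45) with median centring and -0.020 (0.19) with the background fitted on all spots, and no call stood in either.

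Igf2, the fetal growth factor, was read by 2 probes whose fitted values had opposite signs, and the scanned signals differ between them in kind. At A_51_P516826 every one of the 10 spots was saturated in the WT channel on every array, with spot means of 65093 to 65184, which is the ceiling of the scanner. The KO channel of the same spots was not saturated: it ran from 36850 to 43760 on array 1, from 53580 to 62320 on array 2 and from 45370 to 55070 on array 3. The WT signal is therefore known only as a lower limit at this probe. Its fitted ratio of 0.48 ± 0.13 (array values 0.63, 0.43 and 0.37), at a limma adjusted p of 0.00015, is accordingly no more than an upper limit on KO over WT for the loess curve fitted, at most 1.39-fold, and gives no direction. With median centring the value was -0.18, at a limma adjusted p of 0.11.

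**Figure D2:**
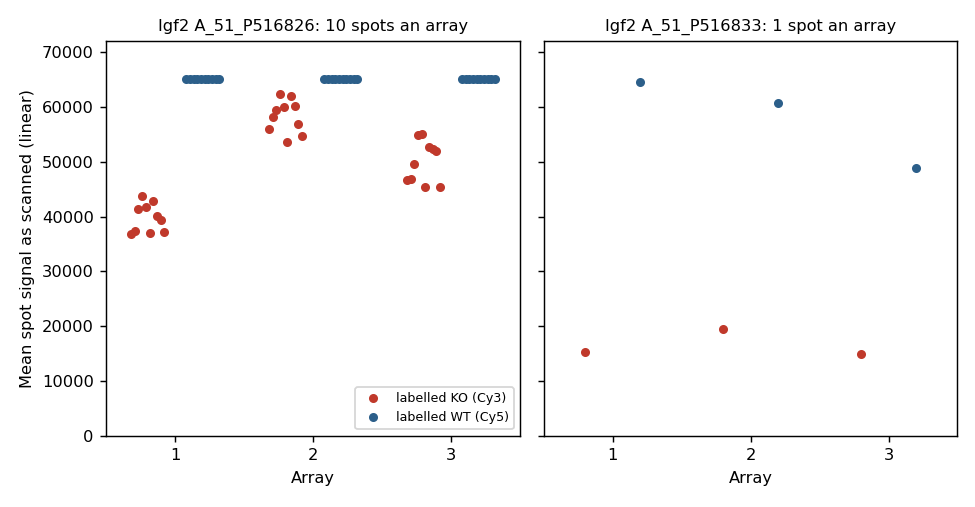
Mean spot signal as scanned (linear, not normalised) for the Igf2 probes A_51_P516826, with 10 spots an array, and A_51_P516833, with 1, on arrays 1 to 3; each point is 1 spot, red for the RNA labelled KO (Cy3) and blue for the RNA labelled WT (Cy5). All blue points of A_51_P516826 sit on one line between 65093 and 65184, the ceiling of the scanner, while those of A_51_P516833 spread from 48900 to 64600.

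At A_51_P516833 the WT channel was below the ceiling on average, at 64600, 60770 and 48900, although 24 of 57 pixels were saturated on array 1 and 0 of 60 and 0 of 59 on arrays 2 and 3. The KO channel was at 15290, 19510 and 14900. After normalisation the levels were 14.55, 14.42 and 14.32 in the RNA labelled KO and 15.33, 15.49 and 15.33 in the RNA labelled WT, with no overlap. Igf2 was lower in the RNA labelled KO on each array by this probe. The ratios were -0.78, -1.07 and -1.01, with a mean of -0.95 ± 0.15 (n = 3), 1.94-fold lower, at a limma adjusted p of 4.6e-06. The value nearest to 0 came from array 1, the array with the saturated pixels. Under median centring the ratio was -1.57, and its direction and call held in all 13 alternatives run on it. Some of these reuse the same ratios, and leaving out saturated spots did not drop the array 1 spot. 

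**Figure D3:**
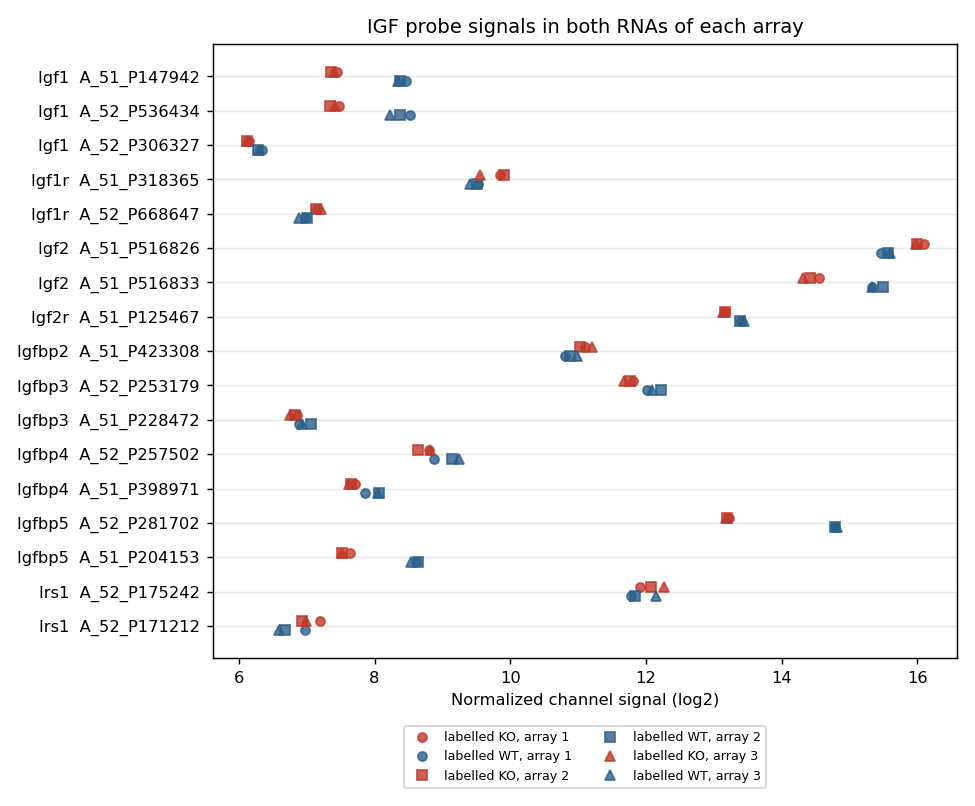
Normalised channel signal (log2) of each IGF probe, red for the RNA labelled KO and blue for the RNA labelled WT, with circles for array 1, squares for array 2 and triangles for array 3. The red and blue points overlap at both Irs1 probes and at none of the other 13 readable probes; the blue points of Igf2 A_51_P516826 are saturated and the red points of Igf1 A_52_P306327 are near background, and signals are comparable only within a probe.

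For Igf1r, the signalling receptor, probe A_51_P318365 (chr7:64082649-64082708) had levels of 9.84, 9.90 and 9.55 in the RNA labelled KO and 9.52, 9.51 and 9.40 in the RNA labelled WT. The lowest KO value, on array 3, lay just above the highest WT value. The ratios of 0.32, 0.39 and 0.15 had a mean of 0.29 ± 0.12, 1.22-fold higher at a limma adjusted p of 0.0018, but the value turned to -0.11 (adjusted p 0.36) under median centring. Probe A_52_P668647 (chr7:64043608-64043667) was 1.16-fold higher, at 0.21 ± 0.099 (limma adjusted p 0.0052), and kept that sign at 0.083 with median centring, without passing the threshold there. The ratios of this probe were 0.18, 0.12 and 0.32, so the array with the lowest value at one Igf1r probe had the highest at the other. Outside the 17 probes, a pair of probes under older names that RefSeq now gives as synonyms of Igf1r had ratios of 0.40 ± 0.11 (A_51_P474538, limma adjusted p 0.00021) and 0.089 ± 0.030 (A_52_P634111, 0.064).

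Igf2r, which clears IGF2 from the cell surface, was slightly lower in the RNA labelled KO at its single probe (chr17:11399590-11399648). Its levels were 13.17, 13.17 and 13.13 in the RNA labelled KO and 13.40, 13.38 and 13.45 in the RNA labelled WT. The groups did not overlap. The ratios of -0.22, -0.21 and -0.32 gave -0.25 ± 0.061, 1.19-fold lower, at a limma adjusted p of 0.00091. Direction and call held in all 14 alternatives, some of which reuse the same ratios, though the size moved to -0.80 under median centring.

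Among the binding proteins, Igfbp5, which also attaches to extracellular matrix, had the largest ratio among the member probes with a measured fold. Probe A_52_P281702 had levels of 13.22, 13.20 and 13.18 in the RNA labelled KO and 14.78, 14.79 and 14.82 in the RNA labelled WT. Each group lay within a narrow band far from the other. The ratios were -1.56, -1.60 and -1.64, with a mean of -1.60 ± 0.038 (n = 3), 3.02-fold lower, at a limma adjusted p of 4.6e-08, and 0.124% of all tested probes had lower values still. The same gene at A_51_P204153 had levels of 7.63, 7.52 and 7.52 in the RNA labelled KO against 8.62, 8.63 and 8.54 in the RNA labelled WT. Its ratios of -0.98, -1.11 and -1.02 gave -1.04 ± 0.066, 2.06-fold lower, at a limma adjusted p of 4.2e-07. Both probes showed the decrease on every array and in all alternatives, with different sizes. Filters, the variance trend and leaving out saturated spots reuse the same ratios, so the direction was fixed there. The value of A_52_P281702 ran from -2.18 to -1.58 over the alternatives, and that of the dimmer A_51_P204153 from -1.43 to -0.38, where -0.38 came from the background model fitted on all spots. The difference in size between the probes was not tested.

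Igfbp2, the neighbour of Igfbp5 on chromosome 1 and a binding protein well known from embryonic brain, had a ratio of the other sign. Its levels were 11.10, 11.03 and 11.21 in the RNA labelled KO and 10.80, 10.88 and 10.99 in the RNA labelled WT, which came close to each other without overlap. The ratios of 0.30, 0.15 and 0.22 gave 0.22 ± 0.076, 1.17-fold higher at a limma adjusted p of 0.0022, and turned to -0.23 (adjusted p 0.042) under median centring. In the authors' deposited values the same fit gave 0.16 at an adjusted p of 0.079. So of this pair of neighbours the decrease of Igfbp5 held under every scaling run, and the sign of Igfbp2 did not.

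Igfbp3, the main carrier of IGFs in blood, and Igfbp4, a binding protein that holds IGFs back from the receptor until a protease cuts it, were lower in the RNA labelled KO by smaller amounts. For Igfbp3, A_52_P253179 (chr11:7158599-7158658) had ratios of -0.21, -0.46 and -0.42 and a mean of -0.36 ± 0.13, 1.28-fold lower, at a limma adjusted p of 0.00066. The second Igfbp3 probe, A_51_P228472 (chr11:7160474-7161483), spans 1010 bases of the genome with its 60 bases, and was at -0.15 ± 0.11 (-0.031, -0.24 and -0.18; limma adjusted p 0.026). That call was lost in 6 of 13 alternatives, among them without replicate 2 (adjusted p 0.13) and without replicate 3 (0.12), over a range of adjusted p from 0.0044 to 0.23.

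For Igfbp4, A_52_P257502 (chr11:99161059-99161118) was at -0.34 ± 0.23 (-0.079, -0.50 and -0.43), 1.27-fold lower at a limma adjusted p of 0.0064. The other Igfbp4 probe, A_51_P398971 (chr11:99157316-99157375), was at -0.33 ± 0.16 (-0.14, -0.42 and -0.43), 1.26-fold lower at a limma adjusted p of 0.0021. At all 4 probes of Igfbp3 and Igfbp4 array 1 was nearest to 0, and the SD between arrays exceeded that of both Igfbp5 probes. The call of A_52_P257502 was lost in 4 of 14 alternatives, with adjusted p from 9.8e-05 to 0.12.

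Irs1, which couples the receptor to PI3 kinase, had ratios above 0 on all 3 arrays at both probes, yet its channel levels overlapped between the groups. At A_52_P171212 (chr1:82451682-82451741) the levels were 7.19, 6.93 and 6.98 in the RNA labelled KO and 6.97, 6.69 and 6.59 in the RNA labelled WT. The lowest KO level lay below the highest WT level, while on each array the KO channel was the higher one. The ratios of 0.22, 0.24 and 0.39 gave 0.28 ± 0.092, 1.22-fold higher, at a limma adjusted p of 0.00091. At A_52_P175242 (chr1:82447810-82447869) the ratios of 0.12, 0.23 and 0.12 gave 0.16 ± 0.063, 1.12-fold higher at a limma adjusted p of 0.0095, a value that turned to -0.34 (adjusted p 0.031) under median centring. Without replicate 2 the call of A_52_P175242 was lost (limma adjusted p 0.065), within a range of 0.0045 to 0.12 over its alternatives. Of the 15 probes readable in both channels, 13 had channel levels without overlap, against 43% of all probes readable in the same way.

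**Figure D4:**
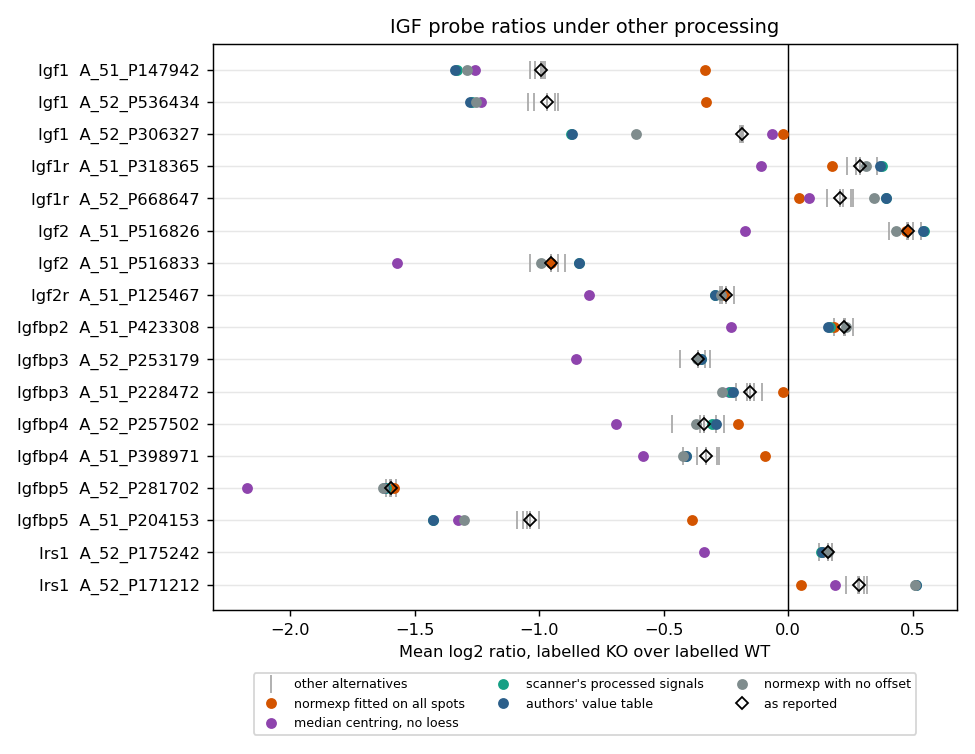
Mean log2 ratio (KO label over WT label) for the 17 IGF probes as reported (open diamonds) and under other processing (coloured dots for background and scaling choices, grey ticks for the rest); dots of the scanner's processed signals lie largely under those of the authors' value table. Median centring (purple) moved Igf1r A_51_P318365, Igf2 A_51_P516826, Igfbp2 and Irs1 A_52_P175242 below 0, and fitting the background on all spots (orange) drew the brighter Igf1 probes to -0.33.

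Since Dnmt3a methylates cytosine before guanine, the CG letters just before the transcription starts mark sites that could be methylated. Methylation itself was not measured on these arrays, and a link between the number of CG and the ratios was not tested. The 250 bases upstream of the start are printed for Igf1 and Igfbp5, which fell and have 1 listed start each, and for Igf1r, whose promoter held the most CG of the 10 genes, from RefSeq on GRCm38.p6, 5′ to 3′ along the gene's strand, with CG in capitals.
Igf1 at chr10:87860861-87861110, plus strand: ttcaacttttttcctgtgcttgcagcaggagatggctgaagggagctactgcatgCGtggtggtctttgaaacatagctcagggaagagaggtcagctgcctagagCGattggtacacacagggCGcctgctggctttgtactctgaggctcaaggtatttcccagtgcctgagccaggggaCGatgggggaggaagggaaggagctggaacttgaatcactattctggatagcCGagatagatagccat
Igfbp5 at chr1:72874866-72875115, minus strand: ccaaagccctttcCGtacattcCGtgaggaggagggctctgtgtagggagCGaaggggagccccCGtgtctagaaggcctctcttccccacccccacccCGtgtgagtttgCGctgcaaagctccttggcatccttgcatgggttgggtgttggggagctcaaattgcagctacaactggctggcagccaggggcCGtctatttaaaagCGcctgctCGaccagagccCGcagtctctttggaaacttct
Igf1r at chr7:67952007-67952256, plus strand: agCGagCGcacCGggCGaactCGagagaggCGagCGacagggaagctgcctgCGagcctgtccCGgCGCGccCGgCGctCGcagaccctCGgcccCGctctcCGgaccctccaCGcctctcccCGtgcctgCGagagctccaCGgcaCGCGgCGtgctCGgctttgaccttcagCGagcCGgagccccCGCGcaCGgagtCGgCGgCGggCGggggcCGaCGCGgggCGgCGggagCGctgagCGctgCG

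All 10 genes, Irs2 included, had an entry in that table. In windows of 300 bases, which take in 50 bases after the start, the number of CG was 6 at Igf1 and 10 at Igfbp5, beside a median of 7 and quartiles of 3 and 20 over 32851 promoters, of which 94.6% held at least 1. It was 48 at Igf1r, 34 at Igf2r, 37 at Igfbp3, 27 at Igfbp4, 28 at Irs1 and 41 at Irs2. Igfbp2 had 18 and 14 at its listed starts, and Igf2 had 2, 14, 24 and 7 at its 4 starts. CG is the same on both strands, and its number in a window is a description of the sequence.

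The wider pathway was read from lists of other genes, 1 probe a gene (the brightest tested), where 46.8% of 18033 genes were called, 21.9% higher and 24.8% lower, and the median of all genes was -0.011. Of 23 other genes of the IGF and insulin system, 18 were tested, and 6 of these were higher, 8 were lower and 4 missed the threshold (median -0.072). Among further binding proteins, Igfbp7, which binds IGFs weakly, was 1.80-fold higher (0.85 ± 0.029, limma adjusted p 6.3e-07), and Igfbp6, which prefers IGF2, was 1.57-fold lower (-0.65 ± 0.080, 7e-06). The adaptors Grb10 and Grb14, which dampen signalling from the insulin and IGF1 receptors, were lower at -0.80 ± 0.051 (1.3e-06) and -0.47 ± 0.072 (3.8e-05). Pappa, the protease that cleaves IGFBP4, was higher at 0.48 ± 0.15 (2.1e-04). Insr, the insulin receptor, did not pass at 0.098 (adjusted p 0.10), and Ins1, Igfbp1, Igfals, Irs3 and Pappa2 were not well above background on all arrays in either channel. With median centring the list held 2 higher and 10 lower, and Igfbp7, Grb10, Igfbp6, Pappa and Grb14 kept their signs. Their sizes moved there: Igfbp7 was at 0.31, Grb10 at -1.27, Grb14 at -0.76, Igfbp6 at -0.90 and Pappa at 0.40. With the background fitted on all spots 8 of the 18 were called, and Igfbp6, Pappa and Grb14 were no longer among them.

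Downstream of the receptor, 32 of 32 genes of the PI3K, Akt and FoxO pathway were tested, and 9 of these were higher, 7 were lower and 16 missed the threshold, a share of 50% called beside 46.8% of all genes. The median was -0.012. Pik3r3, a regulatory subunit of PI3 kinase, was the largest at 0.76 ± 0.11, 1.70-fold higher (limma adjusted p 5.5e-06), and at 0.35 with median centring. There Gab1 was at -0.63 and Eif4ebp1 at -0.80. Foxo6 was lower at -0.36 (1.3e-04; not called, at -0.069, with the background fitted on all spots), Gab1, a docking protein, at -0.32 (4.8e-04) and Eif4ebp1, a repressor of translation that mTOR switches off, at -0.24 (8.8e-04). The adaptor Shc1 was higher at 0.35 (9.4e-05) with loess and at -0.050 with median centring. Foxo1, Foxo3, Akt1, Mtor and Pik3ca had ratios between -0.075 and 0.091 and did not pass. Without replicate 3, 10 of the 32 were called, and with median centring 24 were, 1 higher and 23 lower.

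Of 17 genes that FoxO factors are known to activate, 15 were tested, and 6 of these were higher, 3 were lower and 6 missed the threshold (median 0.071). Fbxo32, a ubiquitin ligase of muscle wasting, was 1.54-fold higher (0.63 ± 0.072, limma adjusted p 7.4e-06) and the repressor Bcl6 was 1.54-fold higher (0.62 ± 0.073, 8.2e-06). Both kept their sign under every scaling, but the call of Fbxo32 was lost at 0.11 with the background fitted on all spots, and that of Bcl6 at 0.20 with median centring. The cell cycle inhibitor Cdkn1b was lower at -0.39 (2.4e-04), as was Klf15 at -0.36 (3e-04), though another Klf15 probe was called in the opposite direction, and both calls were lost with the background fitted on all spots. Sesn3, a stress sensor, was at 0.37 (2.6e-04) and turned to -0.10 under median centring, where the list held 1 higher and 8 lower.

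**Figure D5:**
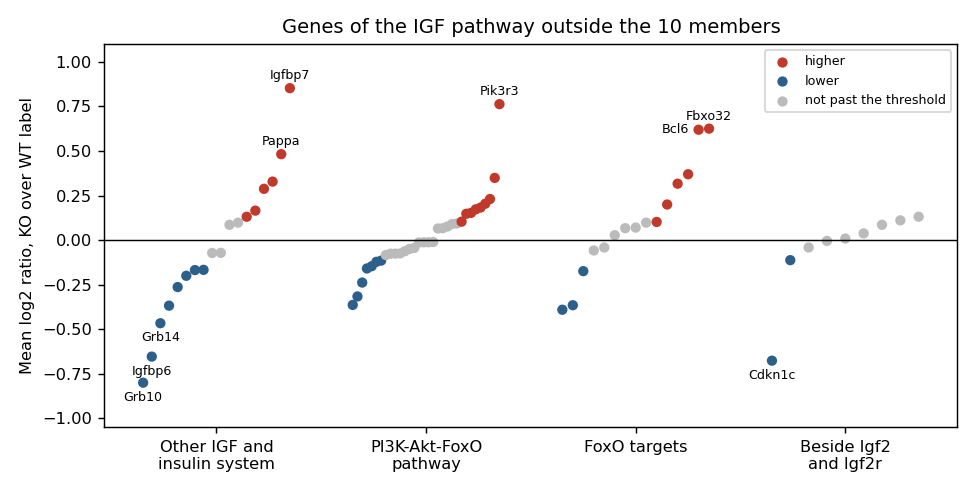
Mean log2 ratio, KO label over WT label (n = 3 arrays), for each tested gene of 4 lists outside the 10 members, ordered by value within a list; red marks genes higher and blue genes lower at the threshold, grey those not past it. Igfbp7 and Pik3r3 stand highest and Grb10 and Cdkn1c among the lowest; under median centring these 4 kept their signs, while the lists held 2, 1, 1 and 0 higher against 10, 23, 8 and 3 lower genes.

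Because Igf2 and Igf2r lie in imprinted clusters, 14 genes beside them were read as well, of which 9 were tested: 2 were lower, 0 higher and 7 missed the threshold. The share called, 22.2%, stood beside 46.8% of all genes, and the median was 0.0090. H19, the non-coding RNA that shares its control region with Igf2 and is expressed from the other parental copy, had a ratio of 0.0090 at a limma adjusted p of 0.86. Airn, the non-coding RNA that starts within Igf2r, was at 0.13 (adjusted p 0.091). Cd81 was saturated in the WT channel on 2 arrays. Cdkn1c, a cell cycle inhibitor of the same arm of chromosome 7 as Igf2, was 1.60-fold lower (-0.68 ± 0.10, limma adjusted p 9.6e-06) and kept its sign and its call in each scaling run, at -1.16 with median centring. Kcnq1 was at -0.11 (0.046), lost the call in 8 of 9 alternatives, and had another probe called in the opposite direction. A p that misses the threshold does not show that H19 or Airn was equal in both RNAs.

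Values of the whole series bear on all of these. RNA was from whole cultures, where fewer cells of a type and less RNA per cell cannot be told apart. Marker counts stand beside 46.8% of all genes called, 21.9% higher and 24.8% lower. Of 11 neural stem cell markers 2 were higher and 7 lower. Their summed linear signals were 56930 to 58310 in the RNA labelled KO and 67650 to 70690 in the RNA labelled WT. The calls of Sox9, Sox2 and Fabp7, all lower, held in the alternatives. Those of Nes, Vim, Slc1a3 and Hes5, also lower, were lost in some. So were those of Pax6 and Prom1, the higher ones, at 0.24 and 0.14. Of 9 fibroblast and mesenchyme markers 1 was higher and 6 lower, with sums of 153500 to 157400 against 203500 to 222500 at partly saturated collagen probes. There the calls of Col1a1, Col1a2, Pdgfrb and Thy1, all lower, held in the alternatives. Those of Dcn and Lum, lower, and of Twist1, higher at 0.27, were lost in some. Of 5 oligodendrocyte lineage markers 3 were lower, with sums of 591 to 608 against 1108 to 1151, and these calls held. Of 4 astrocyte markers 3 were tested and 1, Aldh1l1, was lower at -1.01 (limma adjusted p 4e-07), with sums of 372 to 380 against 549 to 570, while Gfap was not well above background on all arrays in either channel. Of 4 neuron markers 2, Tubb3 and Dcx, were lower, with sums of 982 to 1001 against 1036 to 1071. The other neuron markers did not pass: Map2, the brightest of the 4, was at 0.072 and Rbfox3 at 0.013. Of 6 macrophage markers 3 were tested and 1, Cd68, was higher at 0.19 (limma adjusted p 0.0047), with Ptprc, Aif1 and Itgam not tested. The macrophage sums were 242.5 to 244.5 in the RNA labelled KO against 227.2 to 234.2 in the RNA labelled WT. Of 5 endoderm and liver markers 2 were tested and 1, Foxa2, was higher at 0.29 (limma adjusted p 3.1e-04), with Afp, Alb and Ttr not tested. The endoderm and liver sums were 262 to 274.3 in the RNA labelled KO against 232.3 to 243.6 in the RNA labelled WT. Dcx and Cd68 lost the call with the background fitted on all spots, and Foxa2 lost it with median centring. None of the 2 endothelial markers and the 1 embryonic stem cell marker tested passed the threshold, and Pecam1, Cdh5, Pou5f1 and Nanog were not well above background on all arrays in either channel. The sums add signals of different probes, so the brightest weigh most, such as Vim and Fabp7 for neural stem cells and Aldh1l1 for astrocytes. The astrocyte markers S100b and Aqp4, at 0.042 and 0.0050, did not pass. With that limit, the lower neural stem cell, mesenchyme, oligodendrocyte lineage, astrocyte and neuron sums go the same way as Igf1, Igf2 and Igfbp5. The macrophage sums and the endoderm and liver sums go the other way, and the endothelial and embryonic stem cell sums overlapped. Sums were taken on the loess scale only. The part of any of these cells in the ratios of Igf1, Igf2 and Igfbp5 was not tested. The p-values rest only on the spread between these 3 arrays, with the variance of each probe moderated over all tested probes.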

How the data were processed

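Mouse NSC RNA was measured on 3 two-colour Agilent arrays of 1 slide, with 41174 probes each, KO in Cy3 and WT in Cy5. Per the file headers, the deposited spot and background signals are raw intensity values from Agilent Feature Extraction 9.5.3.1. The scanner software's own ratios of Cy5 over Cy3 are on a log10 scale, per the file headers. The authors' deposited value table was read as log2 ratios of KO over WT, since its columns correlated with the scanner's ratios of Cy5 over Cy3 at -0.992 to -0.998; how it was centred is unknown. Normexp in limma 3.58.1 (R 4.3.3, offset 50, which draws dim ratios toward 0) was applied to mean signals with median local backgrounds, fitted on spots without outlier marks (170, 173 and 242 marked). Ratios were normalised by loess within arrays and a probe's spots averaged. A probe was tested if well above background in one channel on all 3 arrays. The mean of 3 arrays was tested against 0 with lmFit and eBayes, two-sided. The fit was tested on simulated ratios with the SDs of the real probes and known shifts. These held no dye bias, loess or background step, so the simulation cannot speak to those limits. Channel levels were taken after loess and Aquantile normalisation. The KO channel was well above background at 63.6% to 65.0% of probes and the WT channel at 65.5% to 68.8%. The number of arrays limits precision, and array ratios correlated across probes at 0.887 to 0.914. The array pairs the RNAs of a replicate number. The members, lists, background fit and tests were chosen with earlier results of these data known. Every probe of the members was named, and of each list the 5 called genes with the largest absolute ratio, genes that account for counts of 5 or fewer, and Dnmt3a; genes not past the threshold and markers named beyond that were chosen after their values were seen. Alternatives were other background corrections, scalings, filters, the authors' table, a variance trend, leaving out saturated spots and leaving out each array.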

Additional observations from a re-analysis of the deposited data

How the results depend on the processing

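Called counts moved by more than 1.5 times in these cases. With the background fitted on all spots, 9 of 17 member probes, 6360 of all probes (11803 as reported), 8 genes of the IGF and insulin system and 1 gene beside Igf2 and Igf2r were called. That last count was also 1 with no offset, no background subtraction or an intensity trend. With 1 probe a gene, all 8 members tested were called, a smaller number only because genes were counted in place of probes; Igf2 stood there by its saturated probe, and Igf1r was left out because its brightest probe carries another name. Of the PI3K, Akt and FoxO genes, 9 were called with the scanner's processed signals and 8 with the authors' deposited table. Leaving out each array in turn gave 15 to 17 member probes, 10 to 16 PI3K, Akt and FoxO genes, 13 to 14 IGF and insulin genes, 8 to 10 FoxO targets, 2 to 3 genes beside Igf2 and Igf2r and 8666 to 11110 of all probes. Median centring reversed Igf1r A_51_P318365 (-0.11), Igf2 A_51_P516826 (-0.18), Igfbp2 (-0.23) and Irs1 A_52_P175242 (-0.34). The cause was not tested. Calls and directions of Igf1 A_51_P147942, Igf2 A_51_P516833, Igf2r, Igfbp3 A_52_P253179, Igfbp4 A_51_P398971 and both Igfbp5 probes held in all 13 or 14 alternatives run on each. At these probes the other filters, 1 probe a gene, the variance trend and leaving out saturated spots reuse the reported ratios. Those alternatives could change a call but not a direction. The saturated Igf2 probe gave no value with saturated spots left out. Each array ratio pairs the RNAs of a replicate number, so the reported test is itself paired. Signal near background limits the dim Igf1 probe, and saturation the brighter Igf2 probe.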
